A study of Mus musculus with 7 samples.

Results

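The genes that encode the proteins of the cytosolic ribosome were followed in the prefrontal cortex of mice with an altered DISC1 allele. Members were the table's Ensembl genes typed as protein-coding whose symbol starts with Rpl or Rps and a digit, with Rplp0, Rplp1, Rplp2 and Rpsa. Symbols ending in -ps and those of the Rps6 kinases were left out. This gave 86 genes of 43626 in the table, of which 52 carry large subunit names and 34 small subunit names. RNA was sequenced from the prefrontal cortex of 8-week-old C57BL/6J males. There were 4 samples of the genotype hDISC1AA/+, and the reference was 3 wild-type (WT) samples of the same strain, sex and age. DISC1 is a scaffold protein of neurons, and the labels say neither how the allele was made nor whether it holds human sequence. They do not say that each sample came from a separate mouse either. The p-values therefore set the group difference against the spread between samples, some of which may be technical.

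The cytosolic ribosome is built from a large and a small subunit, each an RNA core clad with many small proteins. The small subunit reads the messenger RNA, and the large subunit joins the amino acids. The proteins are needed in matched amounts, and in mammals many of their mRNAs begin with a terminal oligopyrimidine (TOP) tract, a C at the cap followed by a run of C and T, through which mTORC1 signalling controls their translation. In neurons, ribosomes lie in the cell body and also in dendrites and axons, where proteins are made close to synapses.

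The start sites are shown because this tract is the shared sequence feature of the family. RefSeq start sites (GRCm38.p6) were available for 66 of the 86 members by symbol. A C exactly at an annotated start, followed by at least 4 letters that are each C or T on the transcribed strand, was found for 14 of the 66 (21.2%), against 813 of all 27025 genes matched (3.01%). With the first C allowed up to 5 bases to either side, the share was 45.5% of members (30 genes) and 21.2% of all genes. The windows below run 5′ to 3′ from 12 bases before the start through the first 18 transcribed bases, and capitals mark the tract. The first windows belong to members with a tract at the start.
Rps6 (chr4:86857350-86857379, minus strand): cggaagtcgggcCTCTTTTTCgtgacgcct
Rps18 (chr17:33955648-33955677, minus strand): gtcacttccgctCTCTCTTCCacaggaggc
Rps10 (chr17:27635227-27635256, minus strand): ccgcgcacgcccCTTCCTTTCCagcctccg
Rpl15 (chr14:18270969-18270998, minus strand): ggagaaagccttCTTCCTTTCCTCTggcgg
Rpl28 (chr7:4792953-4792982, plus strand): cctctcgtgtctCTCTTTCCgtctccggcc
Rpl35 (chr2:39005114-39005143, minus strand): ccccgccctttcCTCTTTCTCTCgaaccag
Rps2 and Rpl7a, described below, have a tract near but not at the annotated start.
Rps2 (chr17:24720051-24720080, plus strand): cagtcgagatctcgcgCTTCTTggagcact
Rpl7a (chr2:26910795-26910824, plus strand): ccctcttctttCTTTCTCCagcagccgagc
Rplp0, Rpl4 and Rpl41 have none within this reach of the annotated start.
Rplp0 (chr5:115559455-115559484, plus strand): ttcgggtttcgaggaccgcctggttctcct
Rpl4 (chr9:64173375-64173404, plus strand): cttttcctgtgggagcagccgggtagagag
Rpl41 (chr10:128549151-128549180, minus strand): acgggccggctcggaagtgacgacaccgag
A match is a description of these letters, and an annotated start can lie some bases from the one that cortex uses.

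All 7 columns of the table were analysed. In hDISC1AA/+ these were replicates 1, 3 and 4 and a column with the same ending whose number stands in no sample title, called the unnumbered library. WT had replicates 1 to 3. Values listed for hDISC1AA/+ follow the order replicate 1, unnumbered, 3 and 4. The libraries held 33512557 to 36005116 reads in genes in hDISC1AA/+, and 63845254 (replicate 1), 34572903 and 34682070 in WT. Values are normalized counts, that is reads divided by 1 size factor per library. WT replicate 1 and hDISC1AA/+ replicate 1 stood apart from the rest. The share of mitochondrially encoded transcripts was 1.94% in hDISC1AA/+ replicate 1, while the other libraries had 5.14% to 6.94%, and GC content and length accounted for 0.382 of the variance of gene deviations in hDISC1AA/+ replicate 1, against at most 0.123 elsewhere. All 5 neuronal and all 4 cortical marker genes were present in every library. The summed level of 5 oligodendrocyte markers was 31620 to 36931 in hDISC1AA/+, and in WT it was 105607 in replicate 1, 33910 in replicate 2 and 40634 in replicate 3. That of 4 endothelial markers was 4486 to 5291 in hDISC1AA/+, and in WT 1153 in replicate 1, 4623 in replicate 2 and 5852 in replicate 3. That of 4 astrocyte markers was 54182 to 63968 in hDISC1AA/+ and 90391, 53302 and 65382 in WT. Choroid plexus markers summed to 927 in hDISC1AA/+ replicate 1 and to 114 to 195 elsewhere. No marker of these lists was at 0 in any library. In bulk tissue fewer cells of a type and less RNA per cell cannot be told apart.

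No ribosomal protein gene differed detectably between hDISC1AA/+ and WT. Of the 86 members 83 passed the filter (3 or more libraries at a normalized count of 10 or higher), 49 of the large and 34 of the small subunit. Of these 83, 0 had a limma adjusted p under 0.05 over all 17670 genes tested, where the share of all genes called was 0%. At an unadjusted p under 0.05 the count was again 0 of 83, against 2.44% of all genes, and the smallest unadjusted p of a member was 0.0674. On reads recovered from the values edgeR and DESeq2 also called 0. At an unadjusted p under 0.05 there were 2 of 83 with edgeR, against 2.58% of all genes. With DESeq2 there were 2 of the 85 members with reads, against 2.13% of all genes with reads. DESeq2 gave no adjusted p for Rpl35. The median log2 difference of the 83 was -0.011 (hDISC1AA/+ minus WT), beside -0.009 over all genes. In direction 35 were higher and 48 lower, and 42.2% higher stands beside 47.8% of all genes. The direction depended on the scaling: with libraries rescaled to equal totals, which shifts every gene by about the same amount, 64 of 83 were higher (median 0.075), beside 66.9% of all genes (median 0.076). After correction for GC content and length 13 of 83 were higher (median -0.104), beside 46.3% of all genes (median -0.015). For 66 of the 83 the 95% confidence interval lay within 1.5-fold in either direction, beside 54% of all genes, and for 73 it lay within 2-fold.

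**Figure D1:**
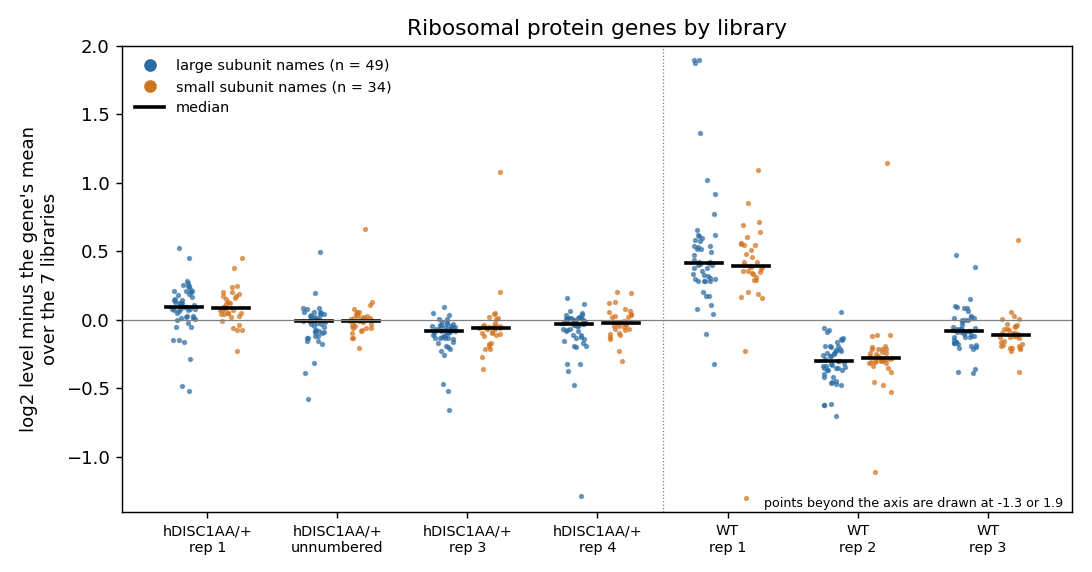
Each point is 1 of 83 ribosomal protein genes in 1 library, as its log2(normalized count + 1) minus the gene's mean over the 7 libraries; large subunit names are blue, small subunit names orange, and bars are medians. The 4 hDISC1AA/+ medians over all members (-0.07 to 0.09) lie between those of WT replicate 1 (0.40) and WT replicate 2 (-0.29).

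The WT libraries spanned a wider range than the hDISC1AA/+ libraries. The members together took 0.962%, 0.871%, 0.794% and 0.840% of the values in hDISC1AA/+ (mean 0.866% ± 0.0709, SD, n = 4), and 1.04%, 0.701% and 0.786% in WT (0.844% ± 0.179, n = 3). All 4 hDISC1AA/+ shares lay between the highest and the lowest WT share. Gene by gene, the median deviation of the members was 0.09, -0.01, -0.07 and -0.02 in hDISC1AA/+, and 0.40, -0.29 and -0.09 in WT. The same order held for most members singly. For 69 of 83 (83.1%) all 4 hDISC1AA/+ values lay inside the WT range, which was so for 17.1% of all genes. WT replicate 1 was the highest of the 7 libraries for 73 members (88% against 28.2% of all genes), and WT replicate 2 the lowest for 67 (80.7% against 12.4%). Within hDISC1AA/+, replicate 1 was the highest for 60 members, where 33% of all genes had it highest. The groups overlapped for all 83 members: 0 were higher and 0 lower without overlap, against 2.2% and 2.84% of all genes (5.04% together). With 1 library left out the count was at most 1 in either direction without hDISC1AA/+ replicate 1 (9.19% of all genes), the unnumbered library (6.96%), hDISC1AA/+ replicate 3 (8.83%), hDISC1AA/+ replicate 4 (9.95%) or WT replicate 3 (12.3%). The counts without WT replicates 1 and 2 are given below.

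**Figure D2:**
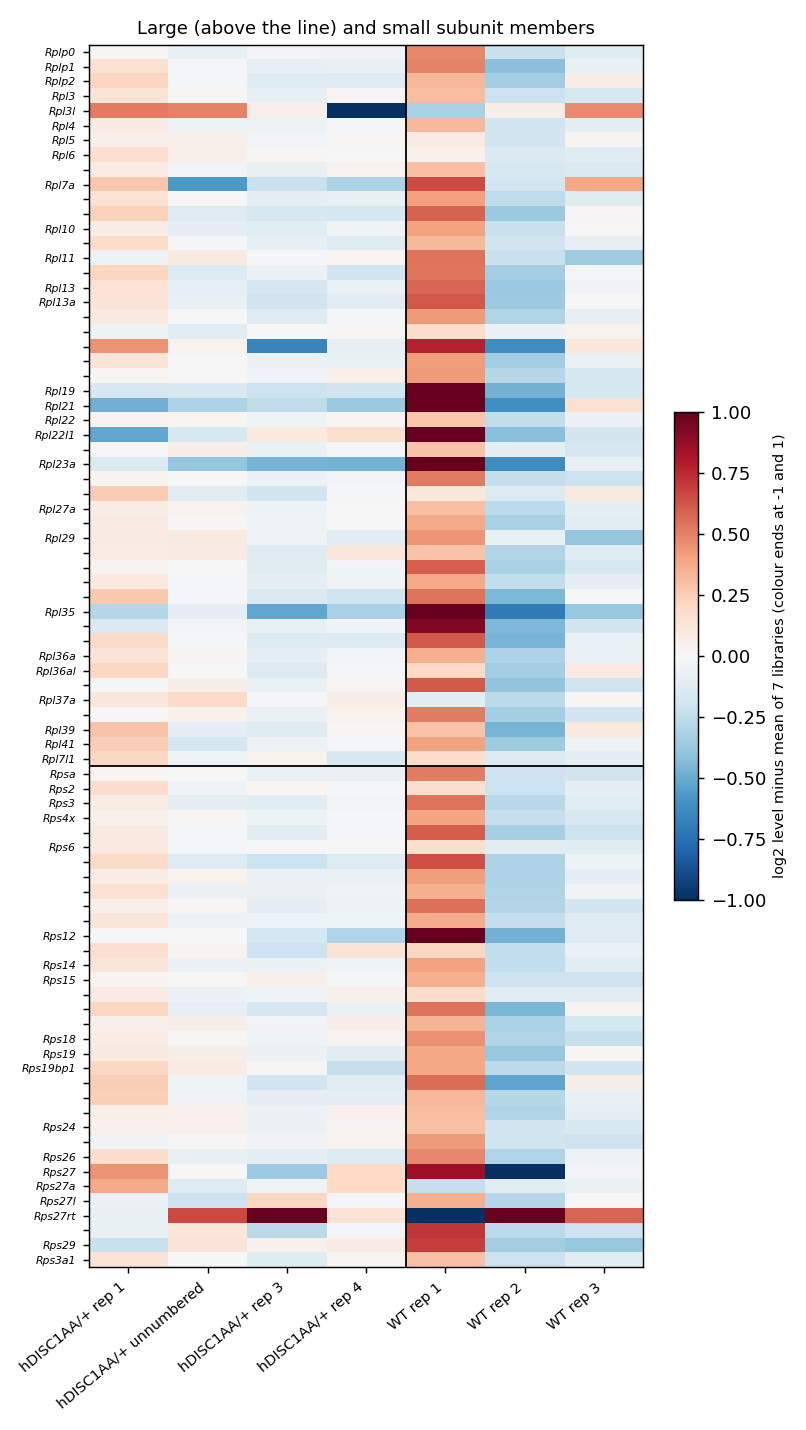
Each line is a ribosomal protein gene and each column a library, hDISC1AA/+ on the left, with the genes described in the text labelled; colour is the log2 level minus the gene's mean over the 7 libraries, from -1 (blue) to 1 (red). The WT replicate 1 column is red and the WT replicate 2 column blue for nearly every member, with Rps27rt reversed in both.

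The medians of the large and the small subunit moved together from library to library. The median log2 difference was -0.024 for the 49 large subunit members (19 higher, 30 lower) and -0.004 for the 34 small subunit members (16 higher, 18 lower), which is -0.02 between the subunits. With only the core proteins it was -0.019. The median deviations of the large subunit members were 0.10, -0.01, -0.08 and -0.03 in hDISC1AA/+ and 0.41, -0.30 and -0.08 in WT. Those of the small subunit members were 0.09, 0, -0.06 and -0.02 in hDISC1AA/+ and 0.39, -0.28 and -0.11 in WT. In every library the medians of the subunits lay within 0.03 of each other. The summed large subunit values were 1.44, 1.42, 1.41 and 1.41 times the small subunit values in hDISC1AA/+ (mean 1.42 ± 0.0157, SD, n = 4), and 1.49, 1.42 and 1.48 times in WT (1.461 ± 0.039, n = 3). These sums weigh abundant members most, and the ranges of the groups overlap. The mean log2 level of the large minus that of the small subunit members was -0.20, -0.22, -0.25 and -0.25 in hDISC1AA/+ and 0.03, -0.23 and -0.15 in WT. WT replicate 1 stood apart in this mean and less so with the core proteins alone, where it was at -0.07. The other core values were -0.23 to -0.21 in hDISC1AA/+ and -0.19 and -0.14 in the other WT replicates. With the core proteins alone all 4 hDISC1AA/+ values thus lay below all WT values, while with all members the groups overlapped. The closest core values of the groups were -0.21 and -0.19, and this difference was not tested.

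The direction of the whole family depended on WT replicates 1 and 2. Without WT replicate 1, 77 of 83 members were higher in hDISC1AA/+, where 48.4% of all genes were, with a median log2 difference of 0.184 beside -0.007 over all genes. The subunits did not part there either: the median was 0.18 for the large subunit (44 of 49 higher) and 0.184 for the small (33 of 34 higher). For 36 members (43.4%) all 4 hDISC1AA/+ values were above both remaining WT values, against 6.35% of all genes. At an unadjusted p under 0.05 there were 14 members, against 1.57% of all genes; all 14 were higher, against 1.01% of all genes in that direction, and 0 passed after adjustment (smallest limma adjusted p = 0.999). Without hDISC1AA/+ replicate 1 as well, 76 of 83 were higher (50.1% of all genes), the median was 0.139 and 37 (44.6%) lay higher without overlap, against 9.79% of all genes. An unadjusted p under 0.05 was then found for 21 members, against 3.32% of all genes. With all 7 libraries and array weights, which count WT replicate 1 and hDISC1AA/+ replicate 1 least, it was found for 9 members, against 10.3% of all genes. Without WT replicate 2 the order turned round: 5 of 83 were higher, and the median was -0.157 beside -0.018 over all genes. In that fit 4 members were lower without overlap, against 7.3% of all genes. An unadjusted limma p under 0.05 was found for 3 members and for 886 of all 17670 genes. The level of WT then rests on WT replicates 1 and 3.

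The differences without WT replicate 1 were smaller once GC content and length were taken out. After that correction 72 of 83 members were higher, with a median of 0.092 beside -0.015 for all genes, and 3 had an unadjusted p under 0.05, against 1.61% of all genes. This correction left WT replicate 1 at 0.41 and brought the 4 hDISC1AA/+ libraries to -0.03, -0.04, -0.05 and -0.02, with WT replicate 2 at -0.21 and WT replicate 3 at -0.04. The 6 libraries other than WT replicate 1 therefore came closer to each other, and WT replicate 2 was again the lowest. The oligodendrocyte, astrocyte and endothelial values given above set WT replicate 1 apart. Its mitochondrial share was the highest (6.94%), but the library farthest from the rest there was hDISC1AA/+ replicate 1 (1.94%). The part of these values in the ribosomal protein level of WT replicate 1 was not tested.

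**Figure D3:**
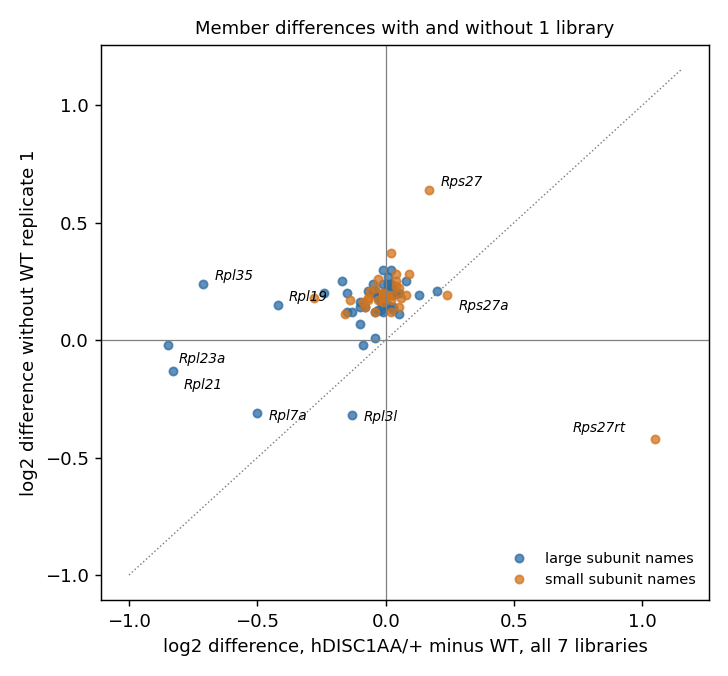
Each point is 1 of 83 members, with its log2 difference (hDISC1AA/+ minus WT) from all 7 libraries on the x axis and without WT replicate 1 on the y axis; the dotted line marks equal values. Most points lie near 0 on the x axis and near 0.2 on the y axis, and Rpl35, Rpl19, Rpl23a, Rpl21 and Rps27rt lie far from the line.

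Among the 14 members with an unadjusted p under 0.05 in the absence of WT replicate 1 were Rpl11, Rps18 and Rps29. They are named after their values were seen, so these values are a description. Rpl11 binds the 5S RNA and, when free, the p53 ligase MDM2. It had 4177, 4601, 4286 and 4390 normalized counts in hDISC1AA/+, and 6314, 3704 and 3387 in WT. Its log2 difference was 0.02 (95% CI -0.42 to 0.46) with all libraries and 0.30 without WT replicate 1. Rps18, a protein of the small subunit head, had 3372, 3224, 3107 and 3258 in hDISC1AA/+ and 4404, 2593 and 2732 in WT. Rps29, a small zinc-binding protein of the same region, had 2193, 2809, 2647 and 2712 in hDISC1AA/+ and 4147, 2014 and 1972 in WT, which is 0.02 with all libraries and 0.37 without WT replicate 1. In each of the 3 the hDISC1AA/+ values lay above WT replicates 2 and 3 and below WT replicate 1.

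Among the members higher in hDISC1AA/+, 5 had the smallest unadjusted p, and none passed (limma adjusted p of 0.974, or 0.977 for Rps2). Rpl37a (chr1:72711290-72713813), a zinc-binding protein of the large subunit, had 2487, 2636, 2277 and 2411 normalized counts in hDISC1AA/+ and 2144, 1925 and 2327 in WT. Only hDISC1AA/+ replicate 3 lay below the highest WT value. Its log2 difference was 0.20 (95% CI -0.03 to 0.44) and 0.21 without WT replicate 1, so that library did not set it. Rps27a (chr11:29545846-29548109) encodes a ubiquitin fused to a small subunit protein. It had 3531, 2479, 2641 and 3125 in hDISC1AA/+, and 2320, 2513 and 2597 in WT (0.24, 95% CI -0.06 to 0.54). The unnumbered hDISC1AA/+ library lay among the WT values and the other 3 above them. Rpl6 had 6042, 5574, 5418 and 5373 in hDISC1AA/+ and 5537, 4871 and 4938 in WT (0.13, 95% CI -0.08 to 0.34). Rps2, which lies at the mRNA entry channel, had 9547, 8260, 8559 and 8316 in hDISC1AA/+ and 9512, 7284 and 7897 in WT (0.08, 95% CI -0.17 to 0.34). The fifth, Rps27rt, is described with its parent gene below.

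Of the members lower in hDISC1AA/+ the 5 with the smallest unadjusted p were Rpl7a, Rpl21, Rpl23a, Rpl35 and Rpl19 (each with a limma adjusted p of 0.974). Rpl7a (chr2:26910764-26913318), whose start window is shown above, had 2802, 1560, 1991 and 1864 normalized counts in hDISC1AA/+ and 3667, 2040 and 3049 in WT. Of the 4 hDISC1AA/+ values 3 lay below all WT values and replicate 1 above WT replicate 2. Its log2 difference was -0.50 (95% CI -1.04 to 0.04) and -0.31 without WT replicate 1, the only one of the 5 that was still lower by more than 0.2. Rpl7a shares stretches of 100 bases with 37 other annotated genes, all 37 of them pseudogenes, over 73.5% of its transcript stretches, and whether this bears on its count was not tested.

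The other 4 were set by WT replicate 1. Rpl23a (chr11:78180932-78183584), at the peptide exit of the large subunit, had 313, 265, 250 and 249 in hDISC1AA/+ and 1549, 225 and 328 in WT. The log2 difference was -0.85 (95% CI -2.19 to 0.48) and -0.02 without WT replicate 1. Rpl35 (chr2:39001580-39005624), also near the exit, had 303, 347, 257 and 294 in hDISC1AA/+ and 1807, 226 and 282 in WT, for -0.71 (95% CI -2.21 to 0.80) and 0.24 without WT replicate 1. Rpl21 (chr5:146832890-146837032) had 516, 580, 603 and 557 in hDISC1AA/+ and 2644, 471 and 801 in WT (-0.83, 95% CI -1.97 to 0.32; -0.13 without WT replicate 1). Rpl19 (chr11:98026710-98030492) had 1747, 1756, 1683 and 1713 in hDISC1AA/+, a spread of a few percent, and 5027, 1404 and 1725 in WT (-0.42, 95% CI -1.3 to 0.47; 0.15 without WT replicate 1). In all 4, WT replicate 1 lay far above the other 6 libraries.

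WT replicate 1 was not higher by the same factor for all members. Its ratio over the median of the other 6 libraries was taken with 1 added to both values. The ratio had a median of 1.37 across the 83 members (1.39 for the large and 1.36 for the small subunit). It was above 2 for 7 members, namely Rpl35 (6.25), Rpl23a (6.00), Rpl21 (4.64), Rpl19 (2.92), Rps12 (2.37), Rpl22l1 (2.28) and Rpl35a (2.05), and below 1 for 4, Rps27rt (0.0562), Rpl3l (0.658), Rps27a (0.886) and Rpl37a (0.905). Among 20 members that share 50% or more of their 100-base stretches with other annotated genes the median ratio was 1.35 (0.0562 to 6.25), and among 21 that share under 10% it was 1.33 (0.658 to 1.59). The medians are alike and the range is far wider among those that share 50% or more. Rpl22l1 (42.9% shared), Rpl35a (17.1%) and Rpl21 (12.3%), with ratios above 2, are in neither group. Across the 83 members the log2 ratio had a Pearson r of -0.02 and a Spearman rho of 0.08 with the shared percentage, and 0.26 and 0.12 without Rps27rt (n = 82). All these ratios rest on 1 library. Rpl35 and Rpl23a also overlap genes on the other strand, Arpc5l and Wdr38 over 68.3% of its exon bases and Tlcd1 over 55.4%. The sources do not call the libraries strand-specific, so reads there cannot be told apart by strand. Arpc5l had 3158 and Tlcd1 407 in WT replicate 1, within or near the values of the other libraries (2678 to 3063 for Arpc5l, 346 to 456 for Tlcd1).

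The counts of Rps27 and its single-exon copy Rps27rt were divided differently from library to library. Rps27 (chr3:90212522-90213651, minus strand) has 5 exons and encodes a zinc-binding protein of the small subunit. Rps27rt (chr9:114982366-114982739, minus strand) has 1 exon. Their coding sequences in GENCODE M21 (GRCm38), 252 bases each without the stop, are the same in 252 of 252 bases, and the sequence is shown because it carries this result.
Rps27 and Rps27rt coding sequence: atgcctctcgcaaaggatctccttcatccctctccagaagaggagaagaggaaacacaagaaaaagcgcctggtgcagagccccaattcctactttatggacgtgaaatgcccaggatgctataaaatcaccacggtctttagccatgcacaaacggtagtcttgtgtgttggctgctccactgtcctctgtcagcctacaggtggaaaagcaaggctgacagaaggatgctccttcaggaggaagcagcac
The first 38 transcribed bases of the copy, as annotated, are also the same as the bases of Rps27 from the second base of Rps27 on. Capitals mark the pyrimidine tract.
Rps27 (chr3:90213631-90213660, minus strand): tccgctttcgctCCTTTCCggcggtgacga
Rps27rt (chr9:114982722-114982751, minus strand): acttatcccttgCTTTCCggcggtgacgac
Of the 100-base stretches of Rps27rt 89.5% occur in another annotated gene, and of those of Rps27 40.1%.

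Rps27rt had 398, 662, 887 and 457 normalized counts in hDISC1AA/+ and 35.3, 929 and 628 in WT. Rps27 had 1769, 1289, 1006 and 1481 in hDISC1AA/+ and 2335, 599 and 1267 in WT. WT replicate 1 was thus the lowest for the copy and the highest for the parent, and WT replicate 2 the reverse. Their sum varied less, with 2166, 1952, 1893 and 1938 in hDISC1AA/+ (mean 1987 ± 122, SD, n = 4) and 2370, 1528 and 1895 in WT (1931 ± 422, n = 3). The copy held 18.4%, 33.9%, 46.9% and 23.6% of the sum in hDISC1AA/+ and 1.49%, 60.8% and 33.1% in WT, so the groups overlap. The log2 difference of Rps27rt, 1.05, was the farthest from 0 of all 83 members and had the widest interval (95% CI -1.42 to 3.52; limma adjusted p = 0.974). It was -0.42 without WT replicate 1. That of Rps27 was 0.17 (95% CI -0.79 to 1.12), and 0.64 without WT replicate 1. Reads from the shared coding sequence cannot be assigned to 1 gene by their bases, and how such reads were counted is unknown. Neither gene's value can therefore be read with certainty as its own level. Whether the counting set the division between them was not tested.

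**Figure D4:**
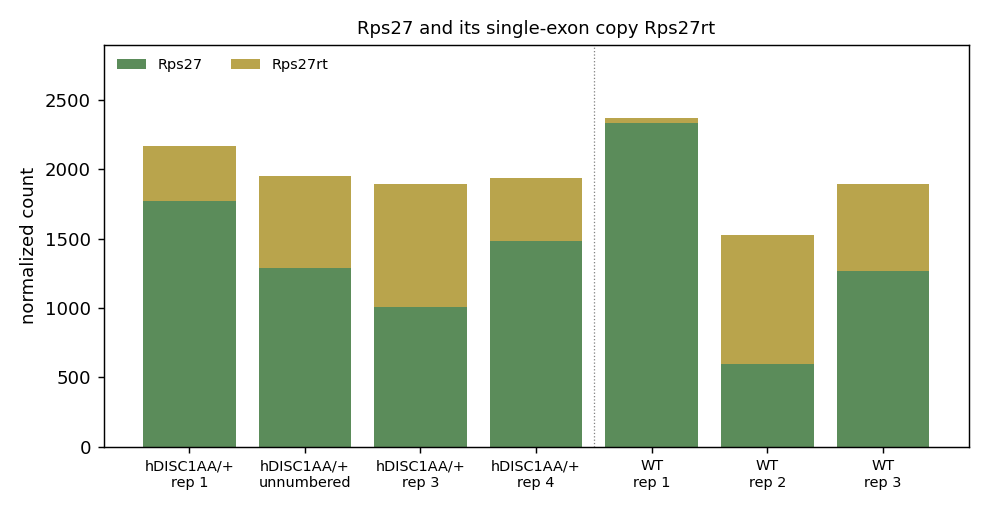
Stacked bars give the normalized counts of Rps27 (green) and Rps27rt (yellow) in each library, hDISC1AA/+ on the left and WT on the right. The stack is 1893 to 2166 in hDISC1AA/+ and 1528 to 2370 in WT, while the yellow share runs from 1.49% in WT replicate 1 to 60.8% in WT replicate 2.

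The proteins of the functional centres followed the family. The P stalk of the large subunit, which recruits elongation factors, is made of Rplp0, Rplp1 and Rplp2. Rplp0 had 5644, 5310, 5479 and 5469 normalized counts in hDISC1AA/+ and 7792, 4791 and 5138 in WT (log2 difference -0.08, 95% CI -0.43 to 0.28). Rplp1 was at -0.01 (-0.44 to 0.43) and Rplp2 at -0.04 (-0.40 to 0.33). All 4 hDISC1AA/+ values of Rplp0 lay between WT replicate 1 and the other WT replicates. Rpl3, next to the peptidyl transferase centre, had 14202, 13099, 12255 and 13161 in hDISC1AA/+ and 16091, 11220 and 11626 in WT (0.04, 95% CI -0.26 to 0.34). Rpl10, which joins the large subunit late in its assembly, was at -0.10 (-0.42 to 0.22). Rpl5, the partner of Rpl11 in the 5S particle, had 5647, 5666, 5345 and 5496 in hDISC1AA/+ and 5778, 4771 and 5550 in WT (0.05, 95% CI -0.16 to 0.26), with hDISC1AA/+ values within a narrow band. Rpl29 was at 0.01 and Rpl41, the shortest ribosomal protein, at 0.

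On the small subunit, Rps6 is the protein phosphorylated by S6 kinases when mTORC1 is active. It had 6305, 5857, 5929 and 5885 normalized counts in hDISC1AA/+ and 6587, 5445 and 5420 in WT (log2 difference 0.05, 95% CI -0.17 to 0.27). Replicate 1 was the highest of each group and the groups overlapped. Rps3, at the mRNA entry, had 7063, 6306, 6255 and 6617 in hDISC1AA/+ and 9817, 5547 and 6207 in WT (-0.09, 95% CI -0.49 to 0.32). Rpsa, which is also known as the laminin receptor, had 9379, 9206, 8821 and 8854 in hDISC1AA/+ and 13154, 7992 and 8163 in WT (-0.07, 95% CI -0.44 to 0.31). For both, WT replicate 1 alone lay above all hDISC1AA/+ values. Rps19, mutated in human Diamond-Blackfan anaemia, was at -0.01 (-0.38 to 0.36), and Rps26, at the mRNA exit, at -0.08 (-0.48 to 0.32). Rps4x, encoded on the X chromosome, was at 0 (-0.33 to 0.33).

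The paralogues lay below the genes they resemble in normalized counts per kilobase of coding sequence (means of 7 libraries): Rpl3l 10.2 and Rpl3 10830, Rpl22l1 856 and Rpl22 6368, Rps27l 752 and Rps27 5525, Rpl7l1 1999 and Rpl7 6843. Rpl36al (3623) was near Rpl36a (4755). Rpl3l, known as a striated muscle form of Rpl3 and 73% identical to it in coding sequence, had 16.9, 16.6, 11.9 and 4.12 normalized counts in hDISC1AA/+ and 8.99, 12 and 16.4 in WT, where hDISC1AA/+ replicate 4 was the lowest and the groups overlapped. Rpl22l1, 66.9% identical to Rpl22, had 205, 265, 315 and 329 in hDISC1AA/+ and 598, 220 and 259 in WT (log2 difference -0.24, 95% CI -1 to 0.52; 0.20 without WT replicate 1). Rpl22 itself had 2476, 2472, 2361 and 2457 in hDISC1AA/+ and 2957, 2056 and 2339 in WT (0.01, 95% CI -0.27 to 0.30). Rps27l, a p53-inducible form of Rps27, had 225, 204, 271 and 232 in hDISC1AA/+ and 300.4, 192 and 235 in WT (-0.04, 95% CI -0.46 to 0.38). Its longest annotated coding sequence has 315 bases, against 252 for Rps27. Identical bases numbered 189, which is 60% of the 315 aligned columns with gaps counted. Rpl36al had 1322, 1144, 1041 and 1127 in hDISC1AA/+ and 1315, 901 and 1213 in WT (0.03), beside 1637, 1526, 1401 and 1467 in hDISC1AA/+ and 1917, 1207 and 1431 in WT for Rpl36a (0.01). The pair are 87.7% identical in coding sequence, and 83.6% of the stretches of Rpl36a occur in other annotated genes. Rpl7l1 had 1324 to 1692 in hDISC1AA/+ and 1335 to 1662 in WT (0.03). Rpl39 was at 0.05 (-0.36 to 0.46). Rps19bp1, whose symbol meets the rule but which encodes a protein that binds Rps19 and not a ribosomal subunit protein, was at 0.04 (-0.36 to 0.45).

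There were 3 members that did not pass the filter. Rpl10l, a testis form of Rpl10, had 0 reads among 272215204 in the 7 libraries. A count of 0 allows up to 3 reads in all, counting error only. Rpl39l, a testis form of Rpl39, had 0, 1.04, 1.08 and 1.03 normalized counts in hDISC1AA/+ and 2.57, 2.18 and 2.18 in WT. The groups do not overlap, but this rests on 11 reads in all. Rpl24, a core large subunit protein, had 5.29, 7.27, 5.42 and 11.3 normalized counts in hDISC1AA/+ and 5.78, 9.82 and 9.81 in WT, 55 reads in all. That is 16.6 per kilobase of coding sequence, beside 970 for the lowest core protein that passed. The transcript model Gm28037 overlaps 71.5% of its exon bases on the same strand and was itself listed at 0 in all 7 libraries. Whether this overlap bears on the count was not tested.

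Levels of different members were compared only per kilobase, over the exon length or the coding length of the gene. Per kilobase of exon the highest of the 83 were Rplp1 (17191 normalized counts per kilobase, mean of 7 libraries), Rps15 (12799), Rpl13 (9569), Rpl4 (8774), Rpl41 (8594), Rpl13a (8591), Rpl3 (7845) and Rps3a1 (7787). Rpl3l (7.56), Rpl21 (367), Rps27l (409), Rpl7l1 (468) and Rpl35 (531) were the lowest. Per kilobase of coding sequence Rpl41 came first (44714), then Rplp1 (25082), Rps15 (18536), Rpl13a (16434), Rps29 (15727), Rps24 (14466), Rpl27a (12999) and Rps14 (12308), and the lowest were Rpl3l (10.2), Rps27l (752), Rpl22l1 (856), Rpl23a (970) and Rps19bp1 (1292). Of the highest 8, 4 were shared between both lengths, and of the lowest 5, 2. The place of Rpl41 depends on the length used, since its coding sequence is short beside its exons. The medians per kilobase of coding sequence were 6904 for the large and 7686 for the small subunit names. Most neighbours in this order have ranges over libraries that overlap.

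**Figure D5:**
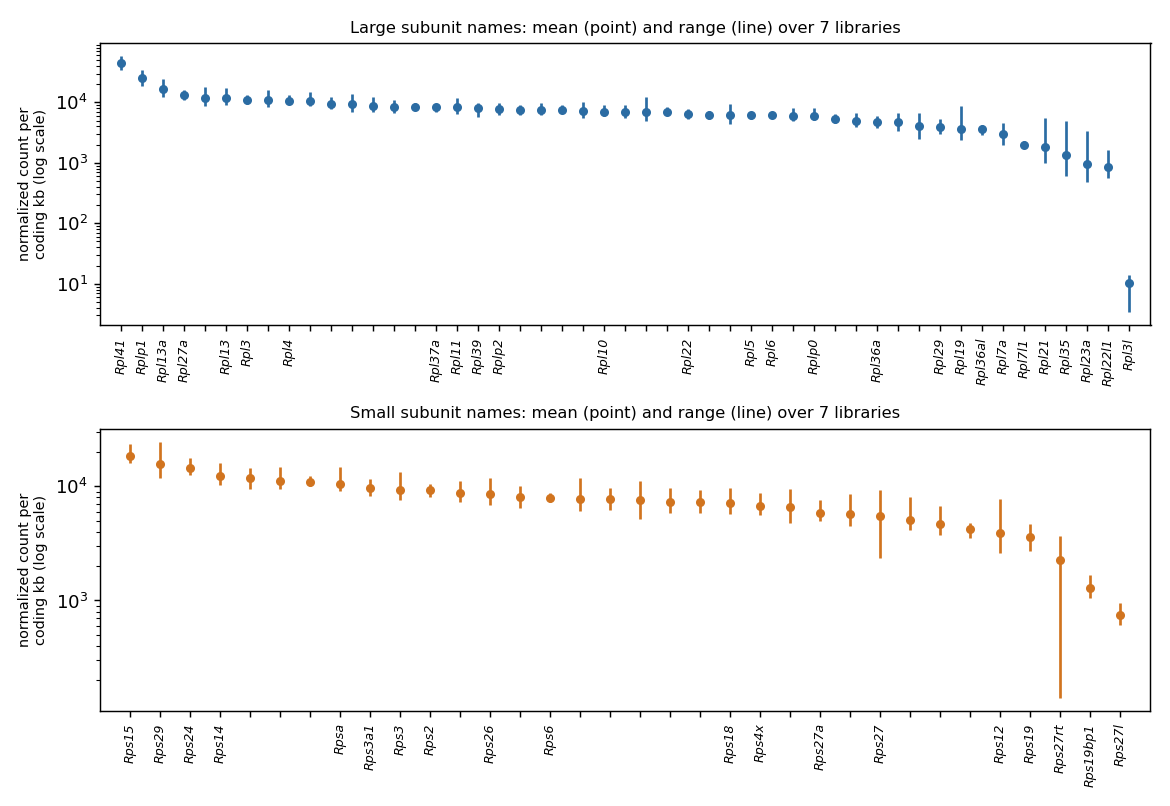
Points are the mean normalized count per kilobase of coding sequence over the 7 libraries and lines the range from the lowest to the highest library, on a log axis, with large subunit names above and small subunit names below and the genes described in the text labelled. Most members form a gentle slope around 7354, the median of all 83, and Rpl3l, Rpl22l1, Rpl23a, Rpl35, Rps27l, Rps19bp1, Rps27rt, Rpl21 and Rpl7l1 lie below it.

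The members are short genes with many copies. Their median coding length was 453 bases, against 1416 for the 14973 protein-coding genes tested, and their median GC content 51.4%, against 50.7%. Of the 86, 77 shared at least 1 stretch of 100 bases with another annotated gene and 21 shared 50% or more of their stretches. The largest number of pseudogenes sharing a stretch was 39, for Rpl21. Exons of other genes overlapped 18 members on the opposite strand and 7 on the same strand. Rpl13a, with 53.3% of its exon bases under Gm45713 and a microRNA gene of the same strand, is an example. How reads with several matches were counted is unknown here.

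Fau and Rack1, whose names the rule does not cover, were read beside the members. Fau, which encodes the small subunit protein eS30 fused to a ubiquitin-like domain, had 4109, 3627, 3327 and 3419 normalized counts in hDISC1AA/+ and 5174, 2871 and 3489 in WT (log2 difference -0.05, 95% CI -0.47 to 0.37). Rack1, the scaffold on the small subunit head, had 4547, 4029, 4080 and 3917 in hDISC1AA/+ and 5873, 3749 and 3986 in WT (-0.10, 95% CI -0.45 to 0.24). Without WT replicate 1 they were at 0.19 and 0.10. Rps4l, typed as a transcribed pseudogene and so outside the rule, was at -0.20 (-0.66 to 0.27).

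Genes that make, regulate or use ribosomes showed no call. Across 12 related lists, 0 of the measured genes passed a limma adjusted p under 0.05, and Eif3f alone had an unadjusted p under 0.05. Over all genes 47.8% were higher, with a median of -0.009. Ribosome assembly factors had 39 of 75 higher with a median log2 difference of 0.002, and were led by Lsg1, a GTPase of late large subunit assembly (0.19), Rpf2, which helps place the 5S particle (-0.19), and Las1l, a nuclease of ribosomal RNA processing (0.17). Without WT replicate 1 Rpf2 was at -0.11 and Las1l at 0.09. This list held 1 gene higher without overlap (Lsg1) and 3 lower, beside 2.2% and 2.84% of all genes. RNA polymerase I genes had 10 of 15 higher (median 0.014) and RNA polymerase III genes 8 of 17 (-0.001). Their smallest p belonged to Twistnb (-0.29) and Polr3k (-0.35), a subunit of each polymerase. Regulators of mTORC1 and of TOP mRNAs had 6 of 17 higher (-0.038), with Eef2k, the kinase of elongation factor 2, at 0.20 and Rheb, the GTPase that activates mTORC1, at -0.26 (-0.06 without WT replicate 1). S6 and RSK kinases had 6 of 10 higher (0.016), with Rps6ka3 at -0.38 and Rps6kb2, which encodes S6 kinase 2, at 0.43 (0.16 without WT replicate 1). Genes of the p53 response had 4 of 10 higher (-0.029), with Trp53 at 0.21 (0.08 without WT replicate 1). Host genes of small nucleolar RNAs had 5 of 6 higher (0.108). Without overlap, 1 gene of 17 was lower in the mTORC1 list and 1 of 10 in the kinase list, beside the same 2.84% of all genes. The polymerase, p53 and host gene lists held 0 in either direction.

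Translation factors held the related gene with the smallest p. Of 36 initiation factors 12 were higher (median -0.044). Eif3f, a subunit of the scaffold that joins mRNA and small subunit, had 4503, 4298, 4162 and 4193 normalized counts in hDISC1AA/+ and 3054, 3863 and 3712 in WT. All 4 hDISC1AA/+ values were above the 3 WT values, and it did not pass over all genes (log2 difference 0.28, 95% CI 0.05 to 0.52; limma adjusted p = 0.974). Without WT replicate 1 the difference was 0.18. The list held 1 gene higher without overlap (Eif3f) and 2 lower (Eif4g2 and Eif3a), beside the 2.2% and 2.84% of all genes given above. Eif4g2 was at -0.22 and Eif1ax at -0.31. Of 14 elongation and termination factors 5 were higher (-0.103), with Abce1, which recycles ribosomes, at -0.22, and the release factor genes Etf1 and Gspt1 at -0.21 and -0.19. For Abce1 all hDISC1AA/+ values (2862 to 3478) lay below all WT values (3496 to 4059), the 1 gene of 14 that was lower without overlap.

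The ribosome of the mitochondrion was set beside the cytosolic genes. Of 76 nuclear genes for mitochondrial ribosomal proteins 24 were higher (median log2 difference -0.031), and 62 were without WT replicate 1 (median 0.078), beside 77 of 83 and 0.184 for the cytosolic members. The difference between the lists was not tested. The 12 measured mitochondrially encoded genes were all lower in hDISC1AA/+ (median -0.884, and -0.521 without WT replicate 1), and most of this rested on hDISC1AA/+ replicate 1. Without that library the median was -0.243, with 1 of the 12 higher. For mt-Nd5 the values were 92049, 152273, 217010 and 189096 in hDISC1AA/+ and 297298, 182161 and 209295 in WT. For mt-Nd1 they were 21462, 184637, 217992 and 196264 in hDISC1AA/+ and 293937, 188388 and 192673 in WT, and mt-Nd3 was listed at 0 in hDISC1AA/+ replicate 1. For mt-Nd5 and mt-Nd1 replicate 1 was the lowest of hDISC1AA/+ and the highest of WT.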

How the data were processed

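Per the labels' protocols, RNA was taken with Trizol from flash-frozen tissue and libraries were made with a NEBNext Ultra kit; how RNA was selected is not stated. Tools listed in the submitters' processing notes are HTSeq (0.6.1), HISAT2 (2.1.0), DESeq2 (1.26.0) and Trimmomatic (0.39), with build mm10, in no stated order. The strand setting and the handling of reads with several matches are not stated. The authors deposited a signal per gene and library that is a read count divided by 1 size factor: 100% of values in all 7 columns were whole multiples of 1 step within 0.01 reads, and dividing by it gave the reads. Because the deposited unit was not raw counts, limma (3.58.1, R 4.3.3; trend and robust) on log2(value + 1) was the main test, two-sided, with Benjamini-Hochberg adjustment over 17670 genes with at least 10 in at least 3 libraries; fold differences understate low genes. edgeR 4.0.16 and DESeq2 1.42.0 were run on recovered reads. Of 43626 gene IDs 42545 matched GENCODE M21 (GRCm38), used for types, lengths and shared stretches (Python 3.11.15). Left out were 3 genes whose values were split from their ID by a line break.

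The members, lists and rules were chosen with earlier results of these data known. Named were the 5 members higher and the 5 lower with the smallest p, the highest 8 and lowest 5 per kilobase, members with textbook roles, paralogues, and the first 3 of each related list, of which some are printed. Alternatives were other scalings, a pseudocount of 5, no filter, array weights, correction for GC content and length, and libraries left out. Replicate numbers follow record order and pair nothing. The fit was tested on simulated counts. Library totals limit precision, and the limit for 0 reads covers counting error only. Some items are not reported here.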

Additional observations from a re-analysis of the deposited data

Results flagged for a closer look

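In 2 of the members named here, 1 of the 4 hDISC1AA/+ libraries lay far from the other 3. Rpl22 had a normalized count of 2361 in hDISC1AA/+ replicate 3, while the others had 2457 to 2476, in a group whose whole spread is small (2441 ± 54.1, SD, n = 4). Rps6 had 6305 in hDISC1AA/+ replicate 1, while the others had 5857 to 5929. Of 83 members tested in this way 8 had such a library, and chance gives about 1 in 20 groups when genes are independent. The members move together by library and the share over all genes was not computed, so this count is not a result about the members.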

How the results depend on the processing

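No alternative called a ribosomal protein gene. The count was 0 under TMM scaling, equal totals, a pseudocount of 5, no filter, array weights, correction for GC content and length, edgeR, DESeq2 and every library left out, with unadjusted p under 0.05 for at most 21 members (WT replicate 1 and hDISC1AA/+ replicate 1 left out together). Array weights gave 9 such members and 10.3% of all genes, with 60 of 83 members higher (median 0.067, beside -0.005 over all genes). The large minus small subunit difference was then -0.046. The number of members whose groups do not overlap ran from 0 to 36 as each library was left out (4 without WT replicate 2), and the subunit difference from -0.037 to 0. The family median ran from -0.157 (without WT replicate 2) to 0.184 (without WT replicate 1), and was -0.104 after GC and length correction with all libraries. Leaving out libraries moved Rps27rt from -0.42 to 1.92, Rpl35 from -1.26 to 0.24, Rpl19 from -0.77 to 0.15 and Rps2 from -0.00195 to 0.19. With WT replicate 1 and hDISC1AA/+ replicate 1 both left out, Rps27rt was at -0.24, Rpl35 at 0.23 and Rpl19 at 0.14. In a fit chosen after seeing the data (GC and length correction without WT replicate 1) they were at -0.46, 0.10 and 0.0181. The cause was not tested. With edgeR Rps27rt was at 0.19, Rpl35 at -1.37, Rpl23a at -1.38 and Rpl19 at -0.65, against 1.05, -0.71, -0.85 and -0.42 with limma. No paired analysis was possible because the columns carry no numbers shared between the groups.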
